A study of Mus musculus with 2 samples.

Results

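Among the host genes of circular RNAs (circRNAs) listed in mouse intestinal cells, 232 of 8174 carried a name that ends in Rik or consists of Gm and a number. They comprised 190 Rik and 42 Gm names. Membership rests on the name alone, although this rule was chosen with earlier results of these data known. Of 31496 circRNAs listed in either library, 595 lay in these hosts, 514 under a Rik name and 81 under a Gm name. The cells came from the intestine of mice of the strain Lgr5GFP-CreERT2, aged 2 months, and both groups share this allele, by which GFP and an inducible Cre are made from the Lgr5 gene. In the widely used reporter of this kind GFP is silent in part of the crypts, so that a GFP-negative fraction may hold stem cells. Flow cytometry separated a fraction labelled Lgr5+ ISC (intestinal stem cell) from a fraction labelled Lgr5- non-ISC, and 1 library was made of each. The sources used here do not give the number of animals or cells behind a library. RNA was freed of ribosomal RNA and treated with RNase R, an enzyme that digests linear RNA, so the readout is circular RNA and gives no level of the linear transcripts.

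A circRNA forms when a splice donor is joined backwards to an acceptor that lies upstream of it, which closes 1 or more exons into a ring without a cap or a poly(A) tail. A sequencing read that crosses this back-splice junction marks the ring. Names ending in Rik go back to cDNA clones of the RIKEN institute, and Gm names to predicted gene models. They are placeholders given before a gene was characterised, so the set is no gene family and shares no pathway.

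Many of the names have since been replaced. RefSeq held 229 of the 232 hosts under the same or an older symbol, and 107 of them have a symbol there that is not of the Rik or Gm kind. GENCODE release M21, with RefSeq where the name was missing, classed 169 hosts as protein coding, 54 as long non-coding RNA and 8 as pseudogenes, and 1 host (4930465A12Rik) was not matched. For 9 hosts the class differed between these annotations. For 130 hosts a circRNA had both ends on exon ends of a single transcript. In 128 of them the gene most often found at those ends had the matched symbol. Hosts whose ends lay only on exons of different transcripts were not compared in this way. An exception among the abundant hosts was 3110021N24Rik, whose leading circRNA has its ends on an exon of Zfyve9.

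The junction sequences of the circRNAs that carry the results were assembled from GENCODE M21 transcripts on GRCm38, the build on which the coordinates fall. The first set belongs to the long non-coding host 2610307P16Rik, with 390 junction reads the most abundant of the 232 hosts, and shows how a few splice sites are used again. In each line the lower-case letters are the last 20 nt of the donor exon and the capitals are the first 20 nt of the acceptor exon.
Exons 4 and 5, chr13:28668370-28669994, minus strand: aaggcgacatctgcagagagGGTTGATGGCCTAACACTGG
Exons 4 to 6, chr13:28608518-28669994, minus strand: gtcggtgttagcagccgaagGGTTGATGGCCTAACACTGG
Exon 5 alone, chr13:28668370-28668704, minus strand: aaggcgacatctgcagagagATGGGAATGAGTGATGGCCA
Exon 7 of 1 transcript and exon 2 of another, chr13:28505706-28561579, minus strand: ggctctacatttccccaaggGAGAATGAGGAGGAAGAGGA
Exons 2 and 3 of yet another transcript, chr13:28505706-28513738, minus strand: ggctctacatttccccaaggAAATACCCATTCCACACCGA
The first and second lines share their capitals, the acceptor of exon 4. The first and the third share their lower-case letters, the donor of exon 5. The last pair of lines share a donor too.

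The second set gives coding hosts and 1 further non-coding host (Gm7854) in the same notation. These circRNAs lead their host in at least 1 library and are referred to in the results.
1300018J18Rik (Selenoo), chr15:89094137-89096819, plus strand: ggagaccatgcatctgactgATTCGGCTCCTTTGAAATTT
4932438A13Rik, chr3:36964875-36975762, plus strand: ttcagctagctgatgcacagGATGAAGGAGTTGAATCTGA
4933426M11Rik (Susd6), chr12:80868427-80870210, plus strand: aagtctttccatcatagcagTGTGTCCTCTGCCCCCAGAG
9130011E15Rik (Armh3), chr19:45885952-45892148, minus strand: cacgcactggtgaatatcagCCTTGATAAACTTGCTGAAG
2010015L04Rik (Cfap74), chr4:155429125-155434381, plus strand: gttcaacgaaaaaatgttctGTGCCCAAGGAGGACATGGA
Gm15800 (Hectd4), chr5:121353491-121353965, plus strand: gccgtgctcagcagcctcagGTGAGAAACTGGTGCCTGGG
1110037F02Rik (Virma), chr4:11544831-11546300, plus strand: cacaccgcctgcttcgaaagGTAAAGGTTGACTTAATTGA
Gm1123, chr9:99014033-99016133, minus strand: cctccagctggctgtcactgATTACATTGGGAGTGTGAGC
2700097O09Rik, chr12:55057242-55063109, minus strand: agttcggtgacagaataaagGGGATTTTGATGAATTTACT
Gm7854, chr5:43165919-43191404, minus strand: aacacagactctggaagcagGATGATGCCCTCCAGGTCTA
Apart from that of Gm7854, each of these circles lies within annotated coding sequence.

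Junction reads numbered 156582 under the label ISC and 76331 under the label non-ISC, so 3 reads, the limit that a count of 0 allows, come to 19.2 and 39.3 per 1000000 junction reads. A ratio divides a feature's share of the junction reads labelled ISC by its share of those labelled non-ISC, and its exact interval (95%) covers counting error only. With 1 library per group there is no replicate check and no p-value, and a ratio compares these libraries rather than cell types. To be called higher or lower, a host or circRNA needed 10 or more reads in the libraries together, a difference of 2-fold or more, and an interval clear of 1. A count of 0 in 1 library met the 2-fold condition whatever the count in the other. Read pairs below are in the order labelled ISC, then labelled non-ISC. A circRNA missing from a list was counted as 0, although a missing entry need not mean that no read existed. Where a library has 0 reads, "at least" gives the fold against 3 reads. This fold leaves out counting error in the library with reads, so the limit of the exact interval lies nearer to 1.

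Marker genes of the sorted cells went against the labels. Of 12 genes of Lgr5 stem cells, 10 had 0 reads in the library labelled ISC, Lgr5 among them, and 4 had 0 in the other. Their sum was 33 reads against 171, a ratio of 0.0941 (0.0628 to 0.137). T lineage genes had 6831 reads against 120 in sum, a ratio of 27.7 (23.2 to 33.5), and 10 of the 10 with at least 10 reads were called higher in the library labelled ISC. Of the 15 T lineage genes, Cd3e, Cd3d and Thy1 had 0 reads there. Epithelial genes had 6 reads against 472, with 13 of 15 genes at 0 in the library labelled ISC, Epcam and Cdh1 among them. Enterocyte genes had 4 against 2803, secretory cell genes 2 against 57, B lineage genes 3 against 3, and stromal with endothelial genes 73 against 7. Of the 8 stromal with endothelial genes, 1 reached 10 reads. In that list 5 genes had 0 reads in the library labelled ISC and 7 had 0 in the other, where Pecam1 gave all the reads. Every direction below is therefore one between libraries as labelled. In bulk libraries such as these, fewer cells of a type and less RNA per cell cannot be told apart, and the part of the makeup of the libraries in the results was not tested.

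The Rik and Gm hosts were sparsely covered. Junction reads were found for 194 of the 232 hosts, 136 of them under the label ISC and 124 under non-ISC, with 66 shared. At least 10 reads over both libraries were reached by 55 hosts, while 139 had 1 to 9 reads and 38 had none. That is 28.4% (22.1 to 35.2) of the hosts with reads, against 40.6% (39.4 to 41.7) of the 7062 other hosts. The median was 4 reads a host against 6. A single circRNA made up the host's reads for 55.1% of these hosts under the label ISC and 64.5% under non-ISC, against 43.1% and 48.3% of other hosts. The share of hosts with reads in both libraries was 34.0% (27.4 to 41.2) against 47.1% (45.9 to 48.2), and depth per host differs between the sets in the same direction.

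Neither direction stood out by number among the hosts that could be called. In the library labelled ISC, 14 of the 55 were higher (25.5%) and 10 lower (18.2%), against a background of 26.7% higher and 22.7% lower among all 2920 hosts with at least 10 reads. The median log2 ratio was 0.16 for the Rik and Gm hosts and 0.16 for all hosts. Of the 14 higher hosts, 8 had 0 reads in the other library, where this held for 304 of the 779 higher among all hosts. Of the 10 lower hosts 4 did, against 158 of 663. Scaled to the library totals that the deposited RPM values imply, which moves every log2 ratio by 1.49, the split of the 55 was 29 higher and 5 lower, against 58.8% and 11.1% of all hosts. Restricted to circRNAs seen in both libraries, 23 hosts kept 10 reads, with 1 higher and 6 lower, against 14.3% and 20.7% of all hosts.

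**Figure D1:**
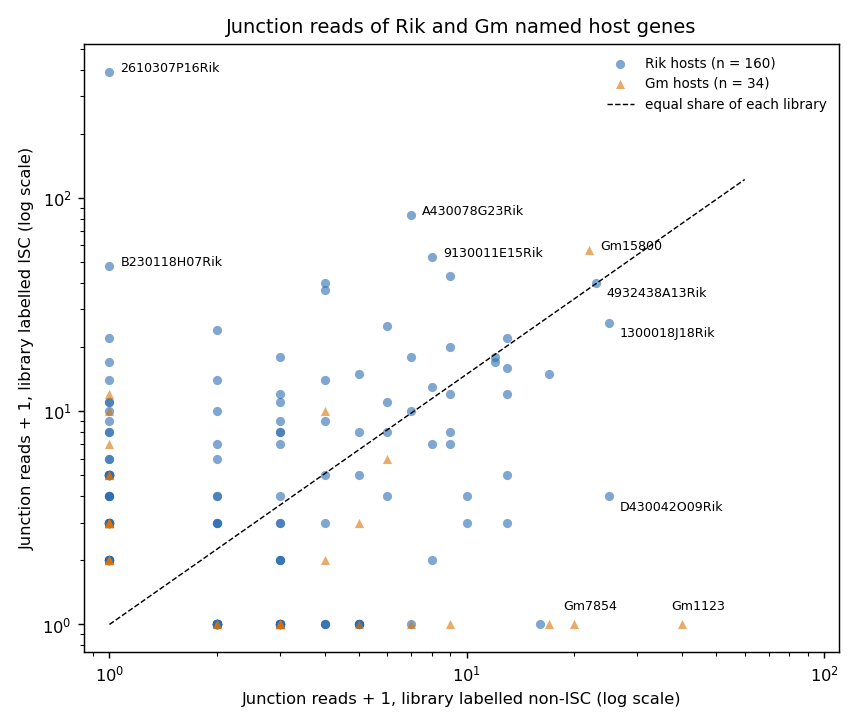
Junction reads of the Rik (circles) and Gm (triangles) named hosts in the library labelled ISC (vertical) and the library labelled non-ISC (horizontal), each with 1 added, on log axes. The dashed line marks an equal share of both libraries. 2610307P16Rik stands at 390 reads against 0, and many hosts lie on an axis with reads in 1 library alone.

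At the level of single circRNAs, 496 had a read and 39 at least 10. Of these 39, 18 were higher in the library labelled ISC (46.2%, against a background of 32.4%) and 8 lower (20.5%, against 23%). Without the 5 circRNAs of 2610307P16Rik, which was left out after its values were seen, 13 were higher and 8 lower. Of the 18, 16 had 0 reads under the label non-ISC, and of the 8, 4 had 0 under the label ISC. Among all circRNAs these counts were 789 of 1187 and 328 of 841. Reads in both libraries were found for 55 of the 496 (11.1%, 8.46 to 14.2), that is 16.3% of those under the label ISC and 25.8% of those under non-ISC. Among other circRNAs the share in both was 16.8% (16.3 to 17.2). With at least 10 reads it was 48.7% (32.4 to 65.2) of the Rik and Gm circRNAs, 55.9% (37.9 to 72.8) without those of 2610307P16Rik, and 69.7% of the others.

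Summed over all members, the direction depended on 1 host and on the scale. The Rik and Gm hosts had 1530 reads (0.977% of the library) under the label ISC and 598 (0.783%) under non-ISC, a ratio of 1.25 (1.13 to 1.37). Without 2610307P16Rik the sums were 1140 and 598 reads and the ratio turned to 0.929 (0.841 to 1.03). For the Rik names alone the ratio was 1.50 (1.34 to 1.67), and 1.08 (0.967 to 1.21) without that host. On the scale of the implied library totals, the ratio was 3.51 (3.19 to 3.87) for all names and 4.21 (3.79 to 4.69) for the Rik names. With the deposited count in place of junction reads it was 0.199 (0.194 to 0.203) for all names. The Gm names had 125 reads against 140, a ratio of 0.435 (0.339 to 0.558), which became 1.23 (0.955 to 1.57) when scaled to the implied library totals. The sums over Rik and over all names fell to 0.889 and 0.861 when restricted to circRNAs seen in both libraries.

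The classes of gene contributed unequally. Protein-coding hosts had 1069 reads against 530, a ratio of 0.983 (0.885 to 1.09), and held 51 of the 55 hosts with at least 10 reads, with 13 higher and 9 lower. Long non-coding hosts had 436 against 53, a ratio of 4.01 (3.01 to 5.44). Without 2610307P16Rik the other 53 long non-coding hosts had 46 against 53, a ratio of 0.423 (0.279 to 0.640). Pseudogene hosts had 25 against 14, a ratio of 0.871 (0.435 to 1.81). On the scale of junction reads, the excess of non-coding circles in the library labelled ISC thus lay in 1 gene. Scaled to the implied library totals, coding hosts stood at 2.77 (2.49 to 3.08), pseudogenes at 2.45 and the 53 long non-coding hosts at 1.19 (0.785 to 1.80), so the directions of the last 2 classes and the level ratio of coding hosts depend on the scale.

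**Figure D2:**
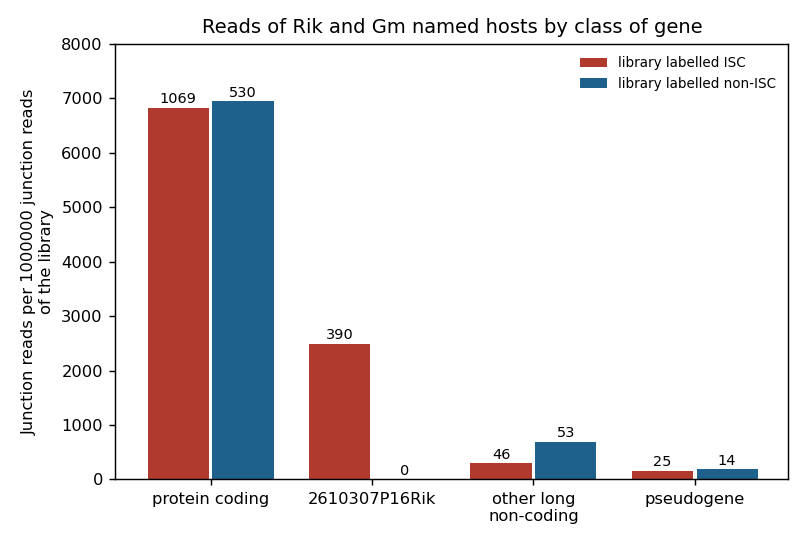
Junction reads of the Rik and Gm named hosts per 1000000 junction reads of each library, by class of gene, with 2610307P16Rik shown apart. Numbers above the bars are reads. On this scale coding hosts stand level between the libraries at 1069 and 530 reads, and 2610307P16Rik has 390 and 0.

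2610307P16Rik, a long non-coding gene of unassigned function in the annotation used, was the clearest case. It lies on the minus strand of GRCm38 at chr13:28460034-28885620, spans 426 kb and has 7 annotated transcripts. The gene Sox4, which encodes a transcription factor, is 63.3 kb beyond its 5′ end. Junction reads numbered 390 under the label ISC and 0 under non-ISC, at least 63.4-fold higher, and the lower limit of the interval was 51.3. Its level of 2491 per 1000000 junction reads ranked 46 among 5823 hosts with reads in that library, and the next of the Rik and Gm hosts had 82 reads. One host thus gave 25.5% of all reads of the group in the library labelled ISC. In the same library T lineage markers were 27.7-fold and stromal with endothelial markers 5.08-fold higher. Lgr5 stem cell markers were lower there, at 33 reads against 171, with Lgr5 itself at 0. The part of the makeup of the libraries in the reads of this host was not tested.

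Its reads came from 27 circRNAs, none with a junction read in the other library. The ring of exons 4 and 5 held 253 reads, 64.9% of the total, and has 548 nt, of which exon 4 gives 213 and exon 5 gives 335. Its GC content is 47.1%, and its length is not a multiple of 3. As the gene has no annotated coding sequence, the exons are shown to make the ring itself visible, in DNA letters in the sense of the transcript (minus strand), exon 4 in full and then the first 300 nt of exon 5.
Exon 4, chr13:28669782-28669994: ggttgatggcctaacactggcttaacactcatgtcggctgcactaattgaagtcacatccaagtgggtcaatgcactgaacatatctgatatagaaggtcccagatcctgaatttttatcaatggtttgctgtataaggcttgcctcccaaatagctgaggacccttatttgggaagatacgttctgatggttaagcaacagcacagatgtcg
Exon 5, chr13:28668370-28668704: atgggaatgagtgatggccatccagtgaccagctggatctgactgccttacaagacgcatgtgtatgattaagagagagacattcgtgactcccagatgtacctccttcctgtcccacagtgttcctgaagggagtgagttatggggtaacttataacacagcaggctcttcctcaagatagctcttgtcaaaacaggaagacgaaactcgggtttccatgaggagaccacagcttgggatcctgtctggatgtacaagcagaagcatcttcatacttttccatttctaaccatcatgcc

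Splice sites were shared among the rings. The acceptor of exon 4 was used by 2 circRNAs with 273 reads, 70.0% of the host. The donor of exon 5 was used by 3 circRNAs with 266 reads (68.2%), the donor of exon 6 by 7 with 58 reads (14.9%), and a donor nearer the 3′ end, at position 28505706, by 5 with 46 reads (11.8%). The remaining rings with at least 10 reads had 25, 20, 16 and 10. Those of 25, 20 and 10 reads are in the sequences above, and the ring of 16 reads has its acceptor at position 28649902, which is not an annotated exon end. A long tail followed, with 16 circRNAs of 1 or 2 reads that gave 25 reads in all.

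Annotated exon ends bounded most of the reads but few of the rings. Both ends were on exon ends in 9 of the 27 circRNAs, which held 330 reads (84.6%), and in 7 of these a single transcript had both. Another 13 had 1 end on an exon end and 5 had neither. The files assign 2 circRNAs with 3 reads to the gene that reach beyond its annotated end. Inside the gene, 3 further entries carry names of FANTOM transcripts, with 9 reads under the label ISC and 0 under non-ISC. Counting every entry inside the annotated gene instead, 396 reads stood against 0.

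**Figure D3:**
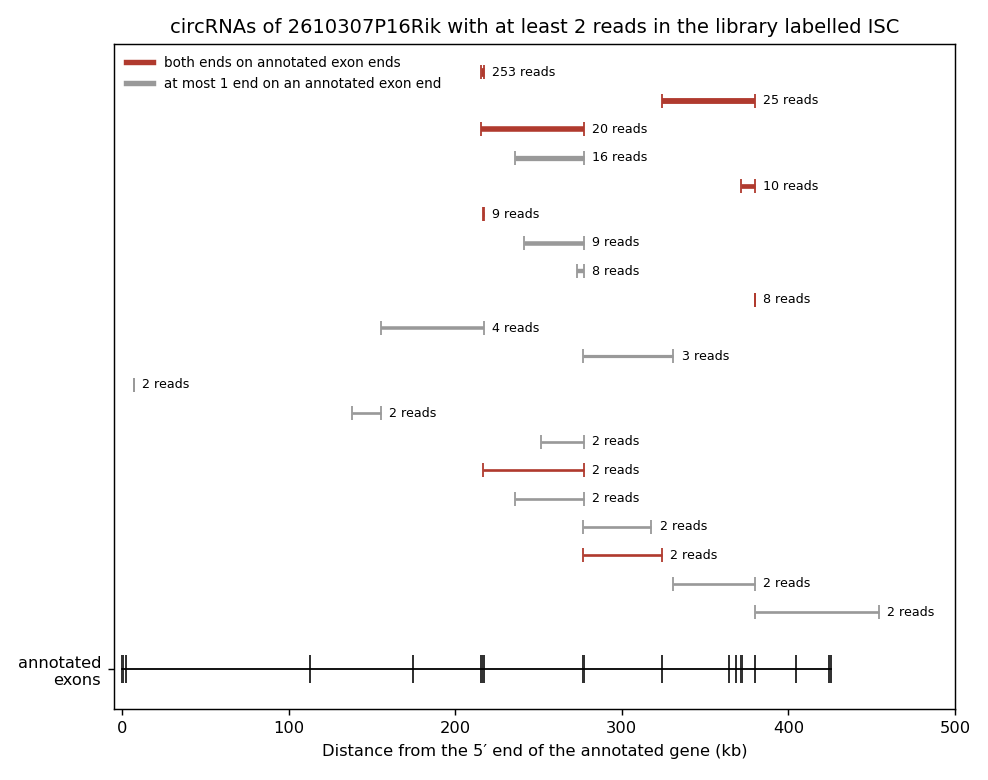
circRNAs of 2610307P16Rik with at least 2 junction reads in the library labelled ISC, drawn from acceptor to donor by distance (kb) from the 5′ end of the annotated gene, with annotated exons below. Line width grows with the reads, which are printed beside each line, and red marks circRNAs with both ends on annotated exon ends. The short ring near 216 kb has 253 reads.

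Among coding hosts, the most abundant in the library labelled ISC was A430078G23Rik, named Arhgef18 in RefSeq. Its reads numbered 82 against 6, a ratio of 6.66 (2.93 to 18.7). Most of them, 70 against 6, came from a ring of exons 2 and 3 at chr8:3380258-3381980, the sole circRNA of this host found in both libraries.

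B230118H07Rik (Iftap), whose protein is tied to transport within cilia, had 47 reads in 8 circRNAs against 0, at least 7.64-fold higher. The lower limit of its interval was 5.97. 2010015L04Rik (Cfap74), a cilium and flagellum protein, had 21 against 0, at least 3.41-fold higher, and the ring of exons 13 to 16 held 12 of them. The interval of Cfap74 began at 2.54. A230046K03Rik (Washc4), a subunit of the WASH complex that drives actin assembly on endosomes, had 16 in 5 circRNAs against 0, at least 2.60-fold higher. No ring of these 3 hosts had a junction read under the label non-ISC, although that list gives Washc4 with a deposited count of 18.

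4933426M11Rik (Susd6), a sushi domain protein, had 39 reads against 3, a ratio of 6.34 (2.01 to 32.1). A ring of exons 3 and 4 gave 38 of the 39, and the 3 reads of the other library came from another circRNA. 9130011E15Rik (Armh3), a Golgi protein with an armadillo-like helical domain, had 52 against 7, a ratio of 3.62 (1.64 to 9.45). Its rings of exons 21 to 23, with 28 reads, and of exons 16 to 20, with 12, had no entry in the other library. The 1 circRNA of Armh3 found in both had 2 reads in each, where the ratio turns to 0.487.

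9930021J03Rik had 42 reads against 8, a ratio of 2.56 (1.19 to 6.31), and 30 against 4 were of a ring at chr19:29786249-29791444 with 1 end that is not an annotated exon end. 2010111I01Rik (Aopep), an aminopeptidase, had 36 against 3, a ratio of 5.85 (1.85 to 29.7), spread over 11 circRNAs against 3 with none in common. Both hosts passed the rule, and the first no longer does over circRNAs found in both libraries, with a ratio of 2.30.

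The other 5 higher hosts fall outside the rule for named genes and are listed to complete the count. 4930402H24Rik had 23 reads against 1, a ratio of 11.2 (1.82 to 462). 4921507P07Rik had 13, Gm525 had 11, and 2610507B11Rik and 2700050L05Rik (Edrf1) had 10 each, all against 0. Their folds against 3 reads were at least 2.11, 1.79, 1.62 and 1.62. The lower limits of their intervals were 1.49, 1.22, 1.09 and 1.09, and that of Washc4 above was 1.88, all under 2.

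In the opposite direction the most abundant host was Gm1123, a protein-coding gene model, with 0 reads against 39, at least 26.7-fold lower in the library labelled ISC. The ring of its exons 4 and 5, 375 nt in length, held 32 of the 39. Gm7854, annotated as antisense long non-coding RNA, had 0 against 19, at least 13-fold lower, with 10 reads in a ring of exons 2 to 6. Since the files give no strand, reads of an antisense gene and of its partner can be told apart by position alone. The ring of exons 2 to 6 has both ends on exon ends of a single Gm7854 transcript. Gm609, a protein-coding model, had 0 against 16 and was at least 10.9-fold lower. These 3 made up all lower calls among the Gm names. The upper limits of their ratios were 0.0484, 0.104 and 0.126.

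9130017N09Rik (Misp), which positions the mitotic spindle and binds actin, had 0 reads against 15, at least 10.3-fold lower, and 11 of the 15 came from a ring of exons 2 and 3. The upper limit of the ratio of Misp was 0.136. D430042O09Rik had 3 against 24, a ratio of 0.0609 (0.0117 to 0.201). 2700097O09Rik had 2 against 12, a ratio of 0.0812 (0.00883 to 0.365), with 11 of the 12 in a ring of exons 2 to 5 that had no entry in the library labelled ISC. Scaled to the implied library totals, the ratio of 2700097O09Rik was 0.229 and the call was lost. Epithelial marker genes, at 6 reads against 472, were lower in the library labelled ISC too. The part of the makeup of the libraries in these calls was not tested.

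The other 4 lower hosts also fall outside the rule for named genes. 2610020H08Rik (Rexo5), an RNA exonuclease, had 14 reads against 16, a ratio of 0.427 (0.193 to 0.933). 3110021N24Rik had 4 against 12 and C030046E11Rik (Ric1), part of an activator of Rab6, had 3 against 9, both at a ratio of 0.162. E130308A19Rik had 2 against 9, all in 1 ring found in both libraries, a ratio of 0.108. Scaled to the implied library totals these 4 calls were lost, with Rexo5 turned to 1.20 (0.543 to 2.63), 3110021N24Rik and Ric1 at 0.458 and E130308A19Rik at 0.305.

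**Figure D4:**
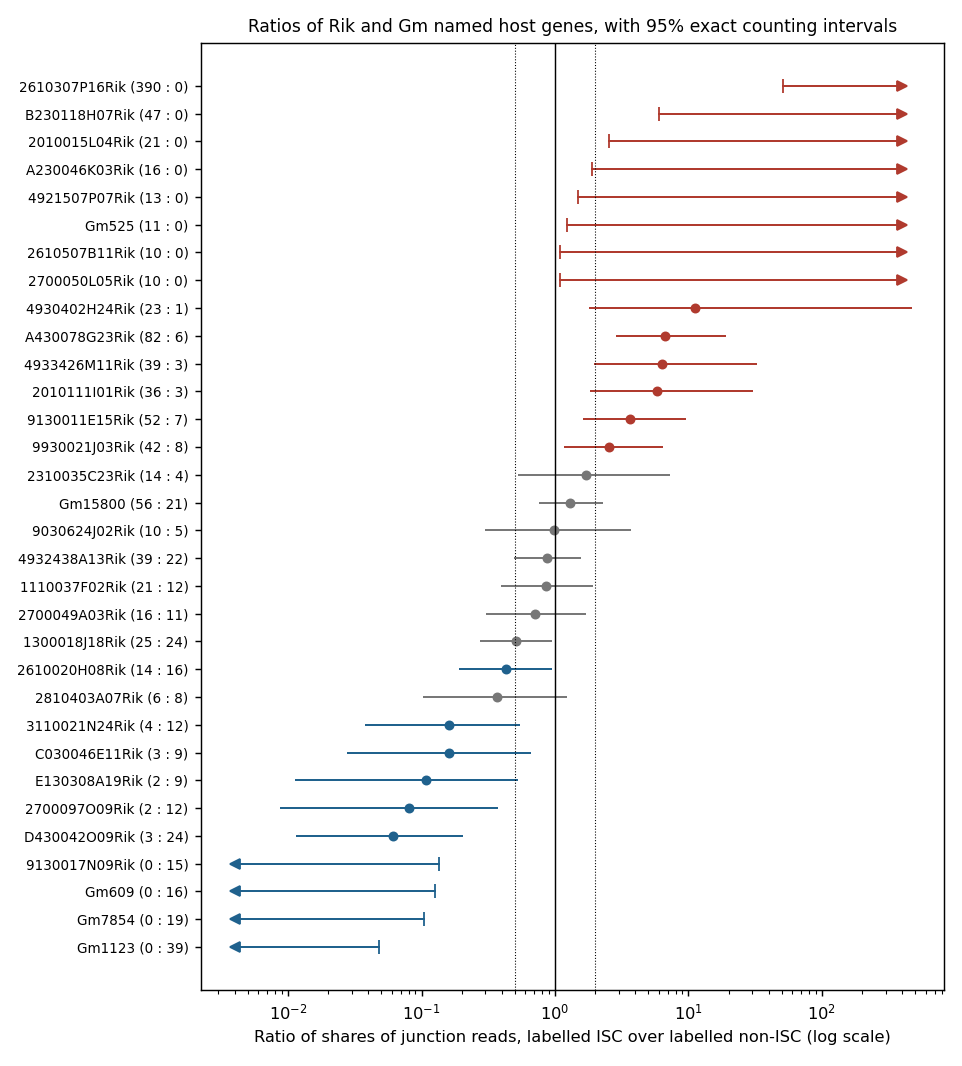
Ratio of the share of junction reads in the library labelled ISC to that in the other, on a log axis, for named and called hosts with at least 10 reads, with 95% exact counting intervals. Points are ratios, arrows run from the interval's limit where 1 library has 0 reads, and reads are in brackets as ISC : non-ISC. Red marks called higher, blue called lower and grey not called, and dotted lines mark ratios of 0.5 and 2.

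Not called were 31 of the 55 hosts, and among these were the hosts best covered in both libraries. Gm15800 (Hectd4), which encodes a HECT domain protein of the ubiquitin ligase kind, had 56 reads against 21, a ratio of 1.30 (0.775 to 2.26). 4932438A13Rik (Bltp1), a bridge-like lipid transfer protein, had 39 against 22, a ratio of 0.864 (0.5 to 1.53). 1300018J18Rik (Selenoo), a mitochondrial selenoprotein that attaches AMP to other proteins, had 25 against 24, a ratio of 0.508 (0.278 to 0.929) that stops just short of the 2-fold rule. These intervals leave room for differences of about that size, so similarity is not shown. Scaled to the implied library totals, the ratios were 3.66 for Hectd4 and 2.43 for Bltp1, both then called higher, and 1.43 for Selenoo. Restricted to circRNAs seen in both libraries they were 0.712, 0.487 and 0.487, and Bltp1 and Selenoo were then called lower. The leading rings of Bltp1, at a ratio of 0.436 (0.213 to 0.886), and Selenoo, at 0.466 (0.248 to 0.875), were called lower on their own.

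Hosts with a known role were looked up whatever their values. 1110037F02Rik (Virma), a subunit of the complex that writes the m6A mark on RNA, had 21 reads against 12, a ratio of 0.853 (0.401 to 1.90). 2700049A03Rik (Talpid3), needed for cilium formation, had 16 against 11, a ratio of 0.709 (0.309 to 1.69). 9030624J02Rik (Vps35l), part of the endosomal retriever complex, had 10 against 5, a ratio of 0.975 (0.304 to 3.64). None of these 3 was called. Scaled to the implied library totals, their ratios were 2.40, 2.00 and 2.75, and Virma was then called higher.

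2310035C23Rik (Relch), which acts in cholesterol transport from recycling endosomes, had 14 reads against 4, a ratio of 1.71 (0.536 to 7.12). 2810403A07Rik (Khdc4), an RNA-binding protein of splicing, had 6 against 8, a ratio of 0.366 (0.105 to 1.20). E430025E21Rik (Washc5), the WASH complex partner of Washc4, and 2410089E03Rik (Cplane1), a ciliogenesis factor, had 1 against 0 each, and C330027C09Rik (Cip2a), an inhibitor of the phosphatase PP2A, had 3 against 0. Of the 11 genes looked up, Washc5, Cplane1 and Cip2a had under 10 reads and could not be called. Among the rest, Washc4 and Aopep were called, both higher, and none was lower. The background among all hosts with at least 10 reads was 26.7% higher and 22.7% lower. On the scale of the implied library totals, Relch stood at 4.81 and was called higher, as Virma and Bltp1 were, and Khdc4 stood at 1.03.

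A few further hosts, most of them known under other names, were singled out after their values were seen. 6720401G13Rik is Firre, an X-linked long non-coding RNA that organises chromatin in the nucleus, and had 9 reads against 6, a ratio of 0.731 (0.232 to 2.50). 5830417I10Rik, the sole pseudogene with at least 10 reads, had 15 against 12. Rings that lead it under the labels ISC and non-ISC reach positions 88835742 and 88901721 of chr3. Both lie beyond its annotated end at 88825587, so the reads follow the host name of the files. D930015E06Rik (Tmem131l) had 13 against 1, a ratio of 6.34 whose interval of 0.952 to 269 just includes 1. Gm14085 (Slc28a2b), a nucleoside transporter, had 5 against 5, and reads shared with its close paralog Slc28a2 would make that value uncertain.

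Hosts with reads in both libraries did not always share a leading ring. Among 9 Rik and Gm hosts with 10 or more reads on each side, the leading circRNA was shared in 4 and differed in 5 (55.6%). It differed in 371 of 1093 other hosts that passed the same minimum (33.9%). Depth above that minimum was not matched between the sets. In 1 of the 5, the pseudogene 5830417I10Rik, 2 rings tied for the lead in the library labelled ISC. In 4932438A13Rik a ring of exons 38 to 45 led in both, but it held 17 of 39 reads (43.6%, 27.8 to 60.4) under the label ISC and 19 of 22 (86.4%, 65.1 to 97.1) in the other. Selenoo put 88.0% and 95.8% of its reads in a ring of exons 3 to 5, and 1600002H07Rik (Tedc2), a partner of delta and epsilon tubulin, put 17 of 17 and 11 of 11 in a single ring.

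Virma used a ring of exons 21 and 22 for 12 of its 21 reads in the library labelled ISC (57.1%, 34.0 to 78.2) and for 1 of 12 in the other (8.33%, 0.211 to 38.5). In the library labelled non-ISC a different ring led with 6 of 12 reads (50.0%, 21.1 to 78.9) and had 0 of 21 in the library labelled ISC. Rexo5 likewise had a ring with 8 of its 16 reads labelled non-ISC (50.0%, 24.7 to 75.3) and 0 of 14 in the other (upper limit 23.2%). In Hectd4 the ring of exons 63 and 64 held 15 of 56 reads (26.8%, 15.8 to 40.3) against 0 of 21 (upper limit 16.1%). For the leading ring of Bltp1, and the leading non-ISC rings of Virma, Rexo5 and 2700049A03Rik (6 of 11 reads, against 0 of 16), the intervals of the libraries did not overlap, while those of the other leading rings did. The leading rings were picked from these same reads, so this is a description.

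**Figure D5:**
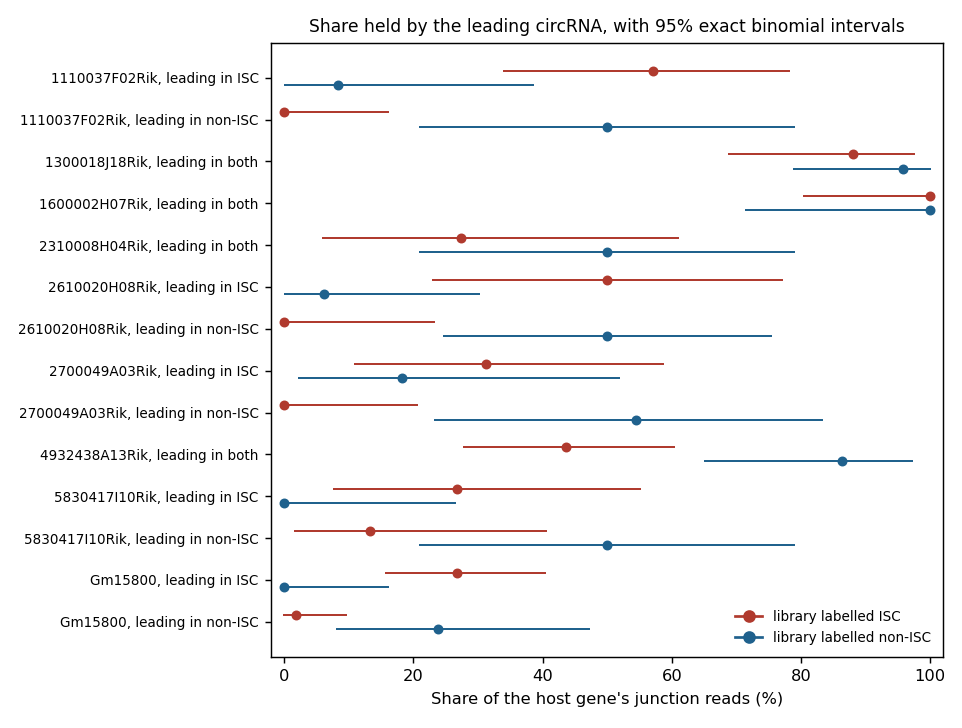
Share (%) of a host's junction reads held by its leading circRNA, for the 9 hosts with at least 10 reads in each library. Red is the library labelled ISC and blue the library labelled non-ISC, and bars are 95% exact binomial intervals. In 4932438A13Rik the shared leading ring stands at 43.6% and 86.4%.

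The rings of Rik and Gm hosts were close to others in size, and a somewhat lower share had both ends on annotated exons. Both ends were on exon ends for 68.6% (63.4 to 73.6) of the 338 circRNAs in the library labelled ISC, which held 80.9% of the reads, and for 67.6% (60.9 to 73.8) of the 213 in the other. Other circRNAs reached 73.8% (73.2 to 74.5) and 76.3% (75.5 to 77.0). The intervals overlap for the library labelled ISC but not for the other. They treat rings of 1 host as independent, although such rings share exons, so they are too narrow for a verdict. Depth differs too, as 60.9% and 69.0% of the Rik and Gm circRNAs had 1 or 2 reads, against 54.4% and 57.1% of the others. The part of depth was not tested. Among rings with 10 or more reads the share was 91.7% of 24 and 100% of 8, against 93.8% and 94.7% of other circRNAs. Where a single transcript had both ends, the median ring held 3 exons in each library, with 454 and 499 nt, against 457 and 494 nt for other circRNAs.

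Long non-coding hosts differed from coding hosts in this respect. In the library labelled ISC, 28.0% (16.2 to 42.5) of their 50 circRNAs had both ends on exon ends, against 75.5% (69.9 to 80.4) of 277 in protein-coding hosts. In the library labelled non-ISC the shares were 31.8% (13.9 to 54.9) of 22 and 73.0% (66.0 to 79.2) of 185. Of the 50, 27 belong to 2610307P16Rik, of which 9 (33.3%) had both ends on exon ends, so they share a source. Reads per ring differ too, as 72.0% and 77.3% of the non-coding circRNAs had 1 or 2 reads against 58.5% and 68.1% of the coding ones. The part of depth and of the completeness of the annotation in this difference was not tested.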

How the data were processed

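The authors deposited 1 list of circRNAs per library. Its 3 value columns are, per the file headers, count, RPM and junction. The deposited counts are whole numbers, and the sources used here do not say which reads they hold. The deposited RPM is the count per 1000000 reads of a total that their quotient gives as 52636694 (labelled ISC) and 72271995. The junction count of the authors, taken as reads across the back-splice, was the measure here. Per the submitters' processing notes, Trimmomatic 0.36, FastQC and the build mm9 were used. Aligner and circRNA caller: not given in the sources used here. Starts of 75.2% and ends of 75.3% of circRNAs fall exactly on GENCODE M21 exon ends, against at most 0.314% when shifted by 1 nt, so coordinates are given as GRCm38, counted from 1. Gene names come from GENCODE and RefSeq (GRCm38.p6), and Talpid3, Bltp1 and Aopep from general knowledge or RefSeq.

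Reads were summed per host name, fitted over all hosts or circRNAs, and given as ratios of shares with exact conditional (Clopper-Pearson) intervals, and shares with exact binomial intervals, all at 95%. For medians 0.5 read was added to each side. Both mates of a short fragment may be counted at 1 junction, which would narrow the intervals, so halved reads were tried. Other alternatives were the implied library totals, the median of ratios over 847 circRNAs, minimums of 5 and 20 reads, circRNAs in both libraries alone, 0 set to 3 reads, the deposited count, and leaving out 2610307P16Rik. Scripts were tested on simulated data.

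Named genes are 2610307P16Rik, the 6 hosts with most reads in each library, per direction the 6 called hosts whose interval lies farthest from 1, the hosts with at least 20 reads in each library and a ratio nearest 1 (3 of 4 sought exist), the 3 Gm hosts with most reads, the 5 circRNAs with most reads in each library and 11 genes of known role. The members, lists and tests were chosen with earlier results of these data known. Sequences are from GENCODE M21 transcripts. Python 3.11.15 with pandas 2.3.3, numpy 2.4.6, scipy 1.17.1 and matplotlib 3.10.9 was used.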

Additional observations from a re-analysis of the deposited data

Results flagged for a closer look

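Some hosts have a deposited count in the library labelled non-ISC but no junction read there, a signal outside the measure compared above. Entries with 0 junction reads occur throughout that list, 6122 over all hosts, and 115 of the 328 entries of Rik and Gm hosts. The list labelled ISC has 0 such entries, so this is a difference between the lists and not particular to Rik and Gm hosts. 2610507B11Rik has a deposited count of 150, 2610307P16Rik of 69, A230046K03Rik (Washc4) of 18 and 2700050L05Rik (Edrf1) of 11, and each was called higher in the library labelled ISC by junction reads. The 69 of 2610307P16Rik belong to 1 entry, chr13:28608518-28644110, which has 9 junction reads and a deposited count of 9 in the library labelled ISC. Junction reads were found for 194 of the 232 Rik and Gm hosts and for 7256 of all 8174 hosts. The 38 Rik and Gm hosts with no junction read in either library have a summed deposited count of 5533. All 38 are listed in the library labelled non-ISC alone, with counts from 1 to 1943 and a median of 23.5, the highest being C130074G19Rik. Of these, 18 are protein coding, 18 long non-coding and 2 pseudogenes. How the deposited count was assigned is not given, so these values entered no ratio except in the alternative that uses the deposited count.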

How the results depend on the processing

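Scaled to the implied library totals, 29 of 55 hosts were higher and 5 lower (all hosts 58.8% and 11.1%), 4 of 39 circRNAs were lower (all 11.6%), the Gm sum turned to 1.23 and the median log2 ratio was 1.66, where the same median over all hosts was 1.66 too. Scaled by the median of ratios, which moves every log2 ratio by 0.30, the median was 0.46. A minimum of 5 reads gave 24 lower of 96 circRNAs (all 22.8%) and a median of 0.29, and a minimum of 20 gave 9 and 3 of 23 hosts (higher, then lower; all 28.5% and 23%), 8 and 3 of 12 circRNAs (all 32.4% and 23.5%) and a median of 0.36. Over circRNAs in both libraries the counts were 1 and 6 of 23 hosts (all 14.3% and 20.7%) and 2 and 4 of 19 circRNAs (all 15.7% and 20.2%), the sums 0.861 (all), 0.889 (Rik) and 0.650 (Gm, 0.371 to 1.15), and the median -0.30, with 9130011E15Rik turned to 0.487. Halved reads gave 8 and 2 of 23 hosts (all 23.4% and 20.6%) and 7 and 1 of 12 circRNAs (all 25.5% and 19.8%). The deposited count gave 32 and 109 of 181 hosts (all 22.2% and 53.8%), 130 and 178 of 360 circRNAs (all 35.5% and 48.2%), sums of 0.199 (all) and 0.220 (Rik) and a median of -1.72, and 5.15 (4.04 to 6.66) for 2610307P16Rik. Without 2610307P16Rik the sums were 0.929 (all) and 1.08 (Rik), and the median, tried after seeing the data, 0.03. Shares with both ends on exon ends were 91.7% and 100% with at least 10 reads, and 48.7% of circRNAs were then in both libraries. The cause was not tested. Fewer features are tested at a higher minimum. In the other 32 comparisons of main results with an alternative, direction and side of the threshold were kept, a count stayed within 1.5 times, or a median or share barely moved. No paired analysis was possible because each group has 1 library, and for the same reason none could be left out.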
